A study of Clonorchis sinensis with 4 samples.

Results

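The miR-2 family of the Chinese liver fluke Clonorchis sinensis was followed through 4 small RNA libraries. Its members were all entries classed as mature whose name begins miR-2 with a letter from a to f, and 7 of the 55 known miRNAs listed over the 4 libraries met this rule. They are miR-2a-3p, miR-2b-3p, miR-2c-3p, miR-2d-3p, miR-2e-3p, miR-2f-3p and miR-2e-5p_1. The first 5 of these carry names matched in C. sinensis and in the blood flukes Schistosoma japonicum and Schistosoma mansoni. miR-2f-3p and miR-2e-5p_1 carry a name from S. mansoni alone.

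miR-2 is a family of protostome animals that is not known from vertebrates. Its mature miRNAs come from the 3p arm of the hairpin, while the 5p arm is mostly degraded, and in many invertebrates its genes lie in a cluster with miR-71. In Drosophila, members repress the cell death genes reaper, grim and sickle. Members of one miRNA family are grouped by the seed, the bases near the 5′ end that pair with target mRNAs.

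Eggs, metacercariae (larvae encysted in fish), adult worms and the extracellular vesicles that adults secrete gave 1 library each. The labels give all as C. sinensis, with total RNA extracted with Trizol, and give no strain, host, age or number of pooled animals. Adult C. sinensis are hermaphrodite worms that carry eggs in the uterus, and the labels do not say whether eggs were removed. The tables hold small RNAs only, so no marker gene of a stage was measured. In whole organisms, fewer cells of a type and less RNA per cell cannot be told apart. Each group is 1 library, so differences have no replicate check and no test. Each difference below compares libraries.

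Annotated tags numbered 19404746 to 20541335 in the stages and 2361216 in vesicles. Of these, miRNAs took 4339591 tags in eggs, 8559610 in metacercariae and 3567193 tags in adults, and 302004 in vesicles. Levels are given as RPM, tags per 1000000 miRNA tags of the library. Where an entry has 0 tags up to 3 remain possible, a limit of 0.691, 0.350 and 0.841 RPM in eggs, metacercariae and adults and of 9.93 RPM in vesicles. Intervals are exact at 95%. They and these limits cover counting error only, with tags treated as independent molecules.

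The family was a major part of the miRNAs of every stage and a trace in vesicles. It held 426649 tags in eggs, which is 9.83% of miRNA tags (9.80 to 9.86). In metacercariae it held 1201547 tags or 14.0% (14.0 to 14.1), and in adults 474460 tags or 13.3% (13.3 to 13.3). Vesicles held 304 tags of the family, 0.101% of miRNA tags (0.0897 to 0.113). All 7 members were listed in eggs, metacercariae and adults, and 4 of 7 in vesicles.

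miR-2a-3p was the most abundant member in all 4 libraries. It held 257270 tags in eggs, 1089187 in metacercariae and 379345 tags in adults, or 59284, 127247 and 106343 RPM. It ranked 6 among 147 miRNA entries in eggs, 4 among 161 in metacercariae and 3 among 152 in adults. Eggs were therefore the stage with the lowest level of the leading member by this scaling. When the typical ratio of entries set the scale (median-of-ratios), the ratio of adults to eggs for miR-2a-3p was 1.02.

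miR-2b-3p held 67727 tags in eggs, 42521 in metacercariae and 50405 tags in adults, or 15607, 4968 and 14130 RPM. miR-2e-3p held 46894, 61335 and 33556 tags in the same order of stages, or 10806, 7166 and 9407 RPM. These were the next most abundant members in each stage, with metacercariae lowest in RPM for both. For miR-2e-3p this did not hold with the authors' RPM, median-of-ratios size factors or TMM. Median-of-ratios and TMM scale libraries by the typical ratio of their entries and not by a total. On the authors' RPM, per 1000000 annotated tags, miR-2e-3p stood at 2283, 2993 and 1729 in eggs, metacercariae and adults. Their order differed between stages, since miR-2b-3p exceeded miR-2e-3p in eggs and adults and miR-2e-3p exceeded miR-2b-3p in metacercariae.

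miR-2c-3p held 19751 tags in eggs, 1394 in metacercariae and 3795 tags in adults, or 4551, 163 and 1064 RPM. miR-2d-3p held 18476, 2070 and 2972 tags in the same order, or 4258, 242 and 833 RPM. miR-2f-3p held 16501, 4911 and 4375 tags, or 3802, 574 and 1226 RPM. All 3 were highest in eggs and lowest in metacercariae in RPM, with adults between, except that on the authors' RPM miR-2f-3p stood at 240 in metacercariae and 225 in adults. Within each stage the counting intervals of these 3 did not overlap, and the lowest of them was miR-2f-3p in eggs, miR-2c-3p in metacercariae and miR-2d-3p in adults.

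miR-2e-5p_1, the 5p entry, was scarce, with 30 tags in eggs, 129 in metacercariae and 12 tags in adults, or 6.91, 15.1 and 3.36 RPM. It was highest in metacercariae, unlike the minor 3p members, although with the authors' RPM miR-2e-3p was highest there too. Each 5p tag stood beside 1563 tags of miR-2e-3p in eggs (1095 to 2317), 475 in metacercariae (400 to 570) and 2796 in adults (1601 to 5412). The interval of this arm ratio in metacercariae did not overlap those of the other stages, while the intervals of eggs and adults overlapped. The suffix of the entry's name is not explained in the sources used here, so its pairing with miR-2e-3p rests on the name.

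**Figure D1:**
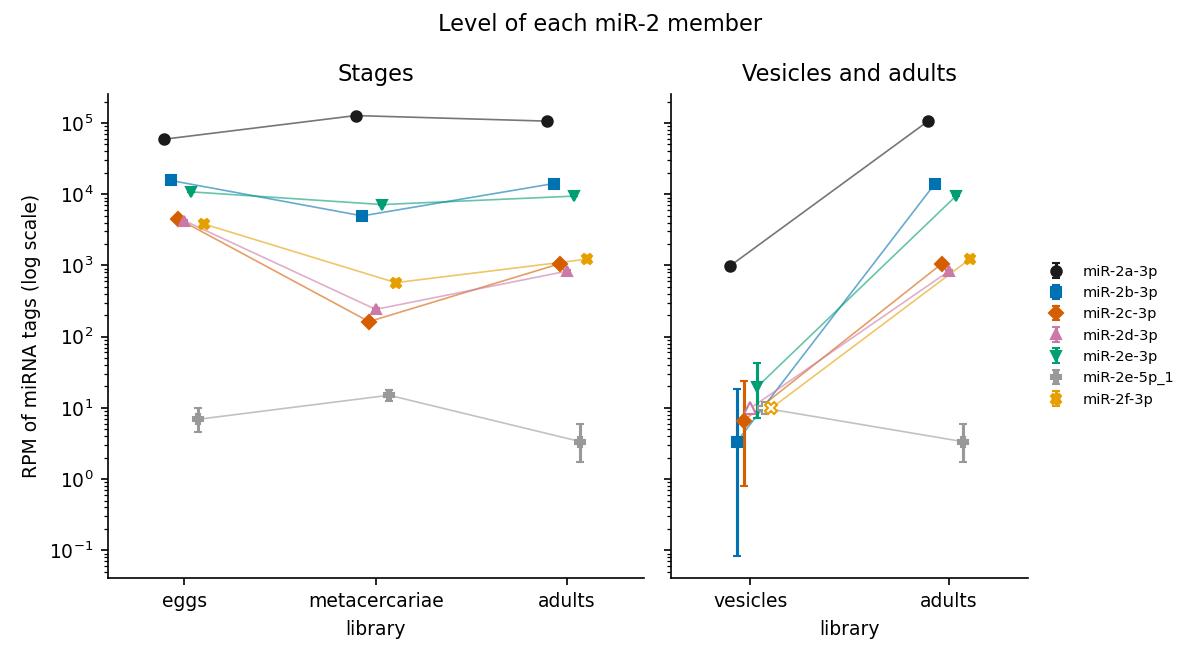
Level of each miR-2 member in RPM of miRNA tags, on a log axis, by stage (left) and in vesicles beside adults (right); points are single libraries, bars are exact 95% counting intervals, and open symbols are members with 0 tags drawn at the limit of 3 tags. miR-2a-3p leads everywhere, and miR-2c-3p, miR-2d-3p and miR-2f-3p are the members furthest below their egg level in metacercariae. In vesicles miR-2a-3p stands at 977 RPM with the other members at or below 19.9 RPM.

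Shares within the family need no scaling between libraries, and they showed the difference in member composition most directly. miR-2a-3p made up 60.3% of the family's tags in eggs (60.2 to 60.4), 90.6% in metacercariae (90.6 to 90.7) and 80.0% in adults (79.8 to 80.1). miR-2b-3p made up 15.9%, 3.54% and 10.6% in the same order, and miR-2e-3p 11.0%, 5.10% and 7.07%. miR-2c-3p, miR-2d-3p and miR-2f-3p made up 4.63%, 4.33% and 3.87% in eggs, 0.116%, 0.172% and 0.409% in metacercariae and 0.800%, 0.626% and 0.922% in adults. The 5p entry was 0.00703%, 0.0107% and 0.00253% of the family in eggs, metacercariae and adults. Eggs thus spread the family's tags over more members than the other stages. The effective number of members, the inverse of the sum of squared shares, was 2.46 in eggs, 1.21 in metacercariae and 1.53 in adults.

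**Figure D2:**
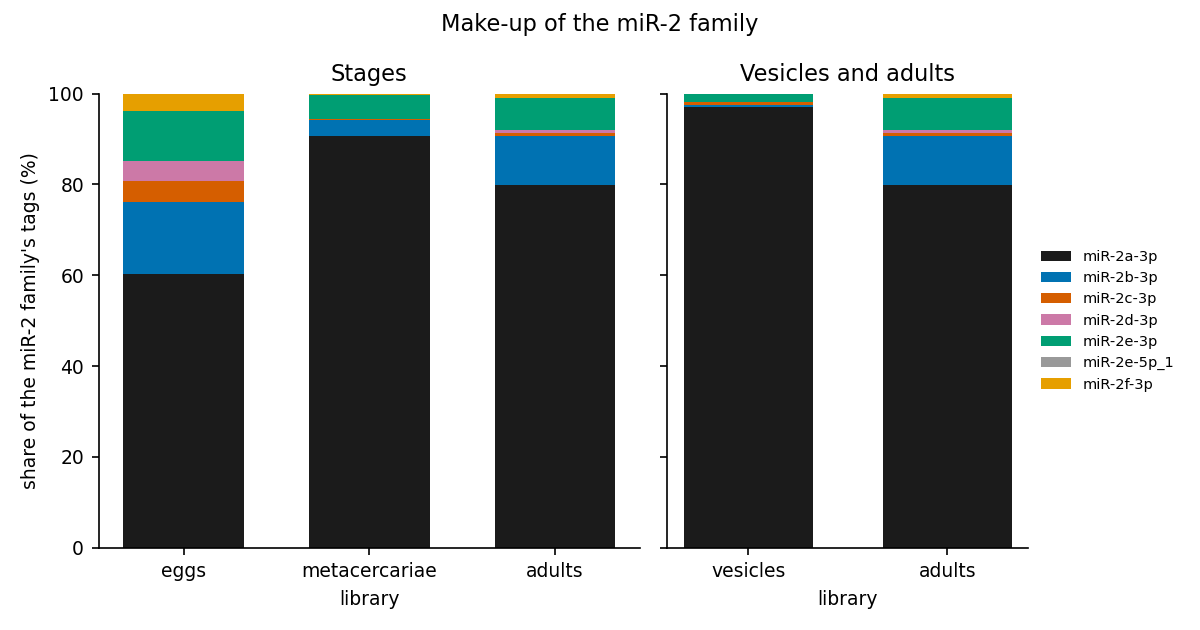
Share of the miR-2 family's tags held by each member, in percent, in the 3 stages (left) and in vesicles beside adults (right), 1 library per bar. The share of miR-2a-3p is 60.3% in eggs, 90.6% in metacercariae and 80.0% in adults, and 97.0% in vesicles, where the whole family holds 304 tags.

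The distance between compositions, the part of the family's tags that would have to change member, was 30.4 percentage points for metacercariae against eggs, 10.7 for adults against metacercariae and 19.7 for adults against eggs. For vesicles against adults it was 17.1. Metacercariae and eggs were thus the most unlike pair of stages and adults lay between them. Without miR-2a-3p the distances between stages were 27.0, 19.4 and 20.6 percentage points, so the minor members also changed places among themselves.

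Counted against miR-2a-3p of the same library, every other 3p member was most abundant in eggs, then adults, then metacercariae. For each 1000 tags of miR-2a-3p there were 263 tags of miR-2b-3p in eggs, 39.0 in metacercariae and 133 in adults. miR-2e-3p gave 182, 56.3 and 88.5 tags in the same order. The other 3 members spanned a wider range. miR-2c-3p gave 76.8 tags in eggs, 1.28 in metacercariae and 10.0 tags in adults, miR-2d-3p gave 71.8, 1.90 and 7.83, and miR-2f-3p gave 64.1, 4.51 and 11.5. The 5 minor 3p members together gave 658 tags per 1000 of miR-2a-3p in eggs (654 to 662), 103 in metacercariae (102 to 104) and 251 in adults (249 to 252).

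The minor members were put into 2 sets, miR-2b-3p with miR-2e-3p and miR-2c-3p with miR-2d-3p and miR-2f-3p, after their values were seen. The RPM ratios of adults over eggs separated the sets. They were 0.91 and 0.87 for miR-2b-3p and miR-2e-3p, and 0.23, 0.20 and 0.32 for miR-2c-3p, miR-2d-3p and miR-2f-3p. For metacercariae over eggs miR-2b-3p and miR-2e-3p also lay above the other set, but the ratios formed a gradient without a clear break. In order they were miR-2e-3p 0.663, miR-2b-3p 0.318, miR-2f-3p 0.151, miR-2d-3p 0.0568 and miR-2c-3p 0.0358. For adults over metacercariae the sets overlapped, with miR-2b-3p at 2.84 and miR-2f-3p at 2.14. For each 1000 tags of miR-2b-3p and miR-2e-3p there were 477 tags of the other set in eggs (473 to 482), 80.6 in metacercariae (78.9 to 82.5) and 133 in adults (130 to 135). Members of a set also varied against each other. For each 1000 tags of miR-2e-3p there were 1444 tags of miR-2b-3p in eggs, 693 in metacercariae and 1502 in adults. Against 1000 tags of miR-2d-3p there were 1069, 673 and 1277 tags of miR-2c-3p in the same order, and 893, 2372 and 1472 tags of miR-2f-3p.

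**Figure D3:**
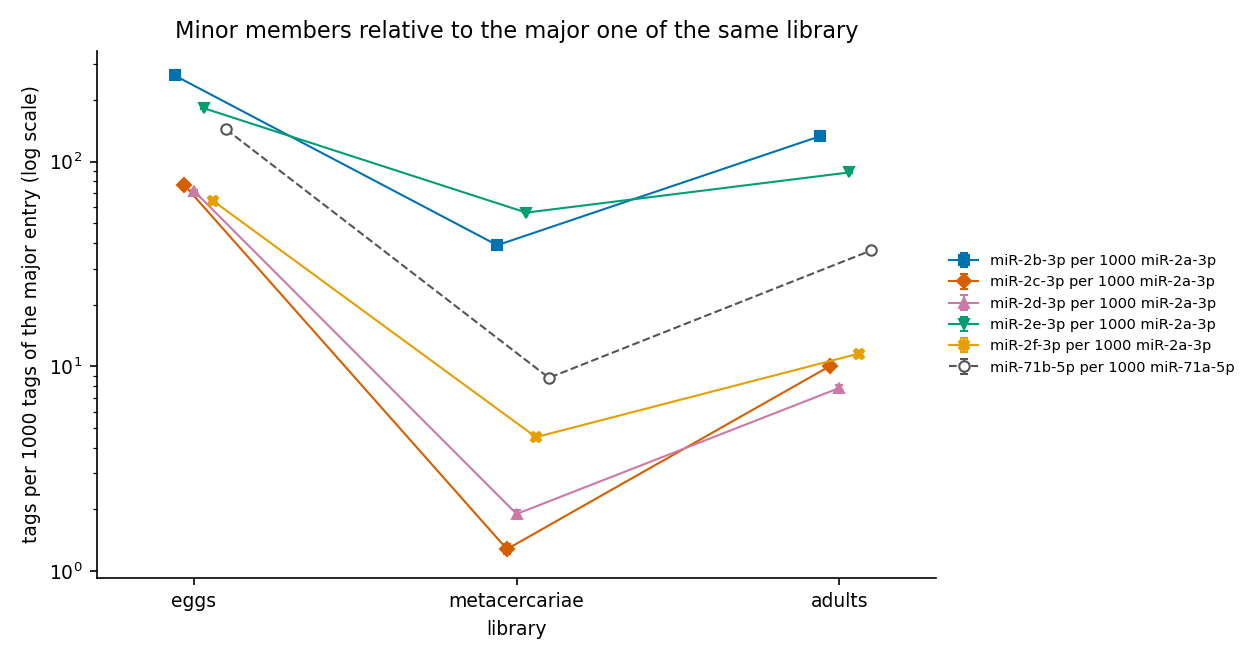
Tags of each minor 3p member per 1000 tags of miR-2a-3p of the same library, and of miR-71b-5p per 1000 tags of miR-71a-5p (dashed), on a log axis; bars are exact 95% counting intervals and are mostly smaller than the symbols. All 6 lines are highest in eggs and lowest in metacercariae, with miR-2c-3p between 76.8 and 1.28.

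The study set out to find miRNAs that mark a stage, and the members are compared pair by pair for this. A member is called higher or lower from a fold of 4 upward, computed after adding 1 RPM to both levels, given 10 or more tags in the library with the higher level and a ratio whose interval lies wholly beyond 2-fold. By this size rule 3 of 7 members were lower in metacercariae, beside 16.1% of all 186 miRNA entries, and 0 were higher, beside 16.1%. These shares are 30 entries each way, against 39 higher and 19 lower with the authors' RPM, which multiplies every ratio here by 1.98. miR-2c-3p was 27.9-fold lower (26.5 to 29.5), miR-2d-3p 17.6-fold lower (16.8 to 18.4) and miR-2f-3p 6.63-fold lower (6.42 to 6.84), the last losing the call under the authors' RPM (ratio 0.298). The ratio of miR-2a-3p was 2.15 (2.14 to 2.16), and with the authors' RPM it was 4.24 and called higher. miR-2b-3p had a ratio of 0.318, which was 0.242 and called lower when known miRNAs alone set the scale, and miR-2e-3p of 0.663, which turned to 1.31 with the authors' RPM. The 5p entry had a ratio of 2.18 (1.46 to 3.36), or 4.31 with the authors' RPM, which was not called. The members' median log2 ratio was -1.65, beside 8.56e-05 over the 122 entries with tags in both libraries, and -0.20 over 184 entries when predicted miRNAs unlisted in a library were set to 9 tags. The family sum had a ratio of 1.43, as its leading member went the other way from the minor 3p ones (miR-2e-3p apart with the authors' RPM), and it stayed above 1 under the 5 other scalings (1.09 to 2.82).

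For adults against metacercariae, 1 of 7 members was higher in adults, beside 23.6% of 182 entries, and 0 were lower, beside 9.34%. The tilt of all entries depended on the scaling, with 43 higher and 17 lower here. The authors' RPM gave 12 higher and 30 lower, median-of-ratios 23 and 27, and TMM 23 and 25. These 3 scalings multiply every ratio by 0.440, 0.506 and 0.528. The member was miR-2c-3p, with 1064 RPM in adults and 163 RPM in metacercariae, a 6.53-fold difference (6.14 to 6.95). It lost the call under the authors' RPM (2.88-fold), TMM (3.45-fold) and median-of-ratios size factors (3.31-fold). miR-2d-3p had a ratio of 3.45, miR-2b-3p of 2.84 and miR-2f-3p of 2.14, and with the authors' RPM these were 1.52, 1.25 and 0.941. miR-2e-3p had a ratio of 1.31, which turned to 0.578 to 0.693 under the authors' RPM, median-of-ratios and TMM. The ratio of miR-2a-3p was 0.836 (0.833 to 0.839), and 0.368 to 0.441 under the same 3 scalings. The 5p entry had a ratio of 0.223 (0.112 to 0.403) on 12 tags in adults and 129 in metacercariae. It was not called, but was called lower with the authors' RPM (0.0982), median-of-ratios (0.113), TMM (0.118), without the most abundant entry (0.208), with a pseudocount of 0.1 RPM and at a fold of 2. The members' median log2 ratio was 1.10, beside 0.98 over the 131 entries with tags in both libraries. The family sum had a ratio of 0.948 (0.944 to 0.951), which was 1.003 when known miRNAs alone set the scale and 0.417 with the authors' RPM.

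For adults against eggs, 2 of 7 members were lower in adults, beside 6.59% of 167 entries, and 0 were higher, beside 21.0%. Over all entries 35 were higher and 11 lower, against 19 and 22 with median-of-ratios size factors, which multiply every ratio here by 0.567, and 21 and 11 with the authors' RPM. miR-2d-3p was 5.11-fold lower (4.92 to 5.31) and miR-2c-3p 4.28-fold lower (4.13 to 4.43) in adults. miR-2f-3p had a ratio of 0.322 (0.312 to 0.333) and did not pass, except with median-of-ratios size factors (0.183) or at a fold of 2. miR-2b-3p and miR-2e-3p had ratios of 0.905 and 0.870, which were 0.513 and 0.493 with median-of-ratios. The 5p entry had a ratio of 0.487 (0.227 to 0.979), or 0.276 with median-of-ratios. The ratio of miR-2a-3p was 1.79 (1.78 to 1.80), and 1.02 with median-of-ratios. The members' median log2 ratio was -1.04, beside 0.82 over the 132 entries with tags in both libraries. The family sum had a ratio of 1.35 (1.35 to 1.36), which turned to 0.767 with median-of-ratios size factors.

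**Figure D4:**
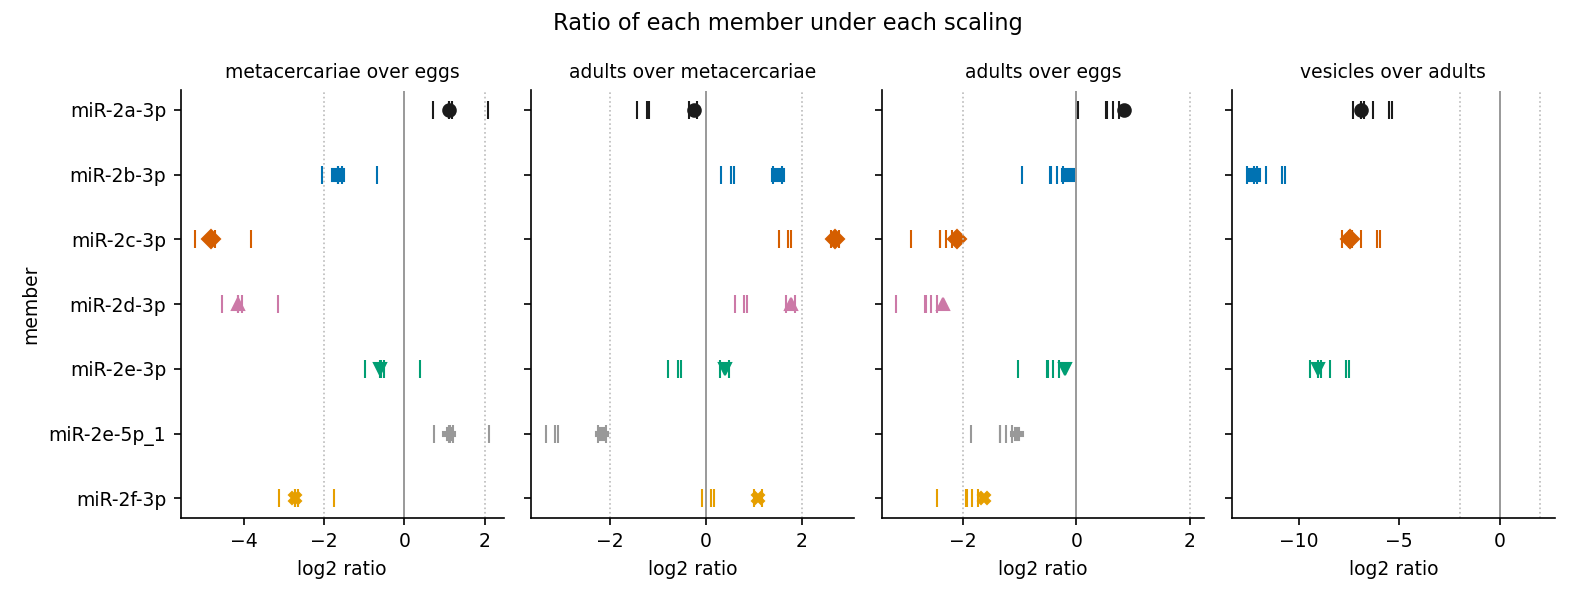
Log2 ratio of each member in each comparison, with the symbol for the scaling used in the text and ticks for the other scalings; dotted lines mark 4-fold and each point compares 2 libraries. miR-2c-3p, miR-2d-3p and miR-2f-3p are below 0 for metacercariae over eggs and adults over eggs under every scaling drawn. miR-2e-3p crosses 0 in metacercariae over eggs and adults over metacercariae, and miR-2f-3p crosses 0 in adults over metacercariae with the authors' RPM. Members with 0 tags in vesicles have no point.

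In vesicles, against adult worms, the family was nearly missing. Both libraries were scaled here to the 51 miRNA entries with tags in both, and 68 entries were compared. Predicted miRNAs without a match in the other library are not among the 68. Of the 7 members, 6 were called lower in vesicles, beside 45.6% of the 68 entries, and 0 were higher, beside 8.82%. Over all entries 6 were higher and 31 lower, against 13 and 23 under median-of-ratios, 13 and 24 without the most abundant entry and 11 and 25 with TMM, while 6 members were lower under each. Other scalings multiply every ratio by between 0.763 (the authors' RPM) and 2.87 (median-of-ratios). The family sum held 304 tags in vesicles and 474460 in adults and was 145-fold lower (129 to 163). It was lower by 50.5-fold to 190-fold under the 6 other scalings.

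miR-2a-3p held 295 tags in vesicles and 379345 in adults, and was 119-fold lower (107 to 134). It ranked 19 among 63 miRNA entries of vesicles and 3 among 152 of adults. miR-2e-3p held 6 tags in vesicles and 33556 in adults and was 519-fold lower (239 to 1415). miR-2c-3p held 2 tags in vesicles and 3795 in adults, a ratio of 0.00568 (6.87e-04 to 0.0205). miR-2b-3p held 1 tag in vesicles and 50405 in adults, a ratio of 2.14e-04 (5.41e-06 to 0.00119). With 9 tags in all for these 3, their order among themselves was not readable in vesicles.

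miR-2d-3p and miR-2f-3p held 0 tags in vesicles, against 2972 and 4375 in adults. Set against a limit of 3 tags in vesicles, miR-2d-3p was at least 92.0-fold lower and miR-2f-3p at least 135-fold lower with this scaling, and at least 32.0-fold and 47.1-fold lower with median-of-ratios. The exact intervals of both ratios, which allow slightly more than 3 tags, began at 74.8-fold and 110-fold lower. The 5p entry held 0 tags in vesicles, and its 3.36 RPM in adults lies below the vesicle limit of 9.93 RPM, so a difference was not detectable at this depth. The members' median log2 ratio was -8.24 over the 4 with tags in both libraries and -7.08 with the others at 3 tags, beside -1.52 over all entries with tags in both. miR-2a-3p made up 97.0% of the family in vesicles (94.5 to 98.6), against 80.0% in adults (79.8 to 80.1), and the minor 3p members gave 30.5 tags per 1000 of miR-2a-3p in vesicles (13.8 to 58.7), against 251 in adults (249 to 252).

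The miR-71 family, whose genes neighbour miR-2 genes in many invertebrates, gives the most direct comparison, with 3 entries listed. No entry named miR-13, a relative of miR-2 in flies, was listed. miR-71a-5p held 1109347, 2200299 and 726689 tags in eggs, metacercariae and adults, and 209169 in vesicles. miR-71b-5p held 159066, 19330 and 26787 tags in the stages, and 1063 in vesicles. miR-71b-3p held 11, 9 and 2 tags in the stages and 0 in vesicles. For each 1000 tags of miR-71a-5p there were 143 tags of miR-71b-5p in eggs (143 to 144), 8.79 in metacercariae (8.66 to 8.91) and 36.9 in adults (36.4 to 37.3). The order eggs, adults, metacercariae was that of the minor 3p members of miR-2 against miR-2a-3p. The distance between miR-71 compositions was 11.7 percentage points for metacercariae against eggs, 2.68 for adults against metacercariae and 8.99 for adults against eggs.

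The entries whose stage profile lay nearest to each member were found by the distance between log2(RPM + 1) profiles over the 3 stage libraries, each centred on its mean, among 45 known miRNAs with a mean of at least 10 RPM. miR-2d-3p lay nearest to miR-71b-5p, at a distance of 0.08, followed by miR-2c-3p at 0.67 and miR-36a-3p at 0.96. For each 1000 tags of miR-71b-5p there were 116 tags of miR-2d-3p in eggs (114 to 118), 107 in metacercariae (102 to 112) and 111 in adults (107 to 115), a narrow range beside the folds of metacercariae against eggs, where miR-2d-3p was 17.6-fold lower and miR-71b-5p 16.2-fold lower. The intervals of this ratio in metacercariae and adults overlapped, and that in eggs overlapped the adult one alone. As the distance was taken over the same stage libraries, the narrow range restates it. miR-2c-3p lay nearest to miR-2d-3p (0.67) and miR-71b-5p (0.72), with miR-36a-3p next (1.02), and miR-2f-3p nearest to miR-71b-5p (0.91), miR-2d-3p (0.99) and miR-2b-3p (1.09).

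The other members lay nearest to entries of other families, with miR-71a-5p the second for miR-2e-3p. miR-2a-3p lay nearest to miR-190 (0.38), miR-1b-3p (0.69) and miR-281 (0.89). miR-2b-3p lay nearest to new_miR-112 (0.39), miR-61-3p (0.52) and miR-281-3p (0.73). Of these, new_miR-112, an entry classed as mature, was scarce, at 12.7, 2.92 and 15.1 RPM in eggs, metacercariae and adults. miR-2e-3p lay nearest to miR-281-3p (0.55), miR-71a-5p (0.55) and miR-61-3p (0.65), and the 5p entry to miR-1_1 (0.48), miR-7-5p (0.59) and miR-307 (0.67). For the family sum the nearest were miR-190 (0.38), miR-71a-5p (0.55) and miR-96-5p (0.59). With 3 stage libraries these distances describe the profiles and carry no test.

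The leading entries of both families kept a different relation. Per 1000 tags of miR-71a-5p there were 232 tags of miR-2a-3p in eggs (231 to 233), 495 in metacercariae (494 to 496) and 522 in adults (520 to 524). In vesicles there were 1.41 tags (1.25 to 1.58), against 522 in adults. In the same way miR-2c-3p, miR-2d-3p and miR-2f-3p together gave 1.88 tags per 1000 of miR-71b-5p in vesicles (0.228 to 6.81), against 416 in adults (407 to 425). Vesicle over adult ratios were 3.10 for miR-71a-5p and 0.427 for miR-71b-5p, against 0.00690 for the miR-2 family. The ratio of miR-71a-5p was not called, but was 8.90 with median-of-ratios size factors, 8.03 without the most abundant entry and 4.62 with TMM, each called higher. That of miR-71b-5p was 1.23, 1.11 and 0.636 under these, and that of the family 0.0198, 0.0179 and 0.0103. The most abundant entry left out here is miR-71a-5p itself, so its 8.03 sets its tags against totals that lack them.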

How the data were processed

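Small RNA was sequenced from 1 library each of eggs, metacercariae, adult worms and vesicles. The authors deposited raw tag counts per entry, per the file headers, and a column headed TPM, which equals the deposited count per 1000000 annotated tags and is RPM with no length correction. Not given in the sources used here are the aligner, the builds and the rule for tags that match several members. In the vesicle library the deposited counts of all classes but predicted ones summed to 2339266 tags, the clean tags less the unassigned ones, so each was counted once there. In the stage libraries this was not tested. Library preparation can favour some sequences, so members are compared across libraries more safely than with each other.

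Counts were scaled to the library's miRNA tags or, for vesicles over adults, to 51 shared entries, 15 of them predicted miRNAs matched by overlapping coordinates. Known miRNAs are listed from 1 tag. Unlisted predicted ones were set to 9 tags in the comparisons of stages. For vesicles over adults, predicted miRNAs without a match in the other library were left out. Ratios carry exact conditional binomial intervals at 95%, shares Clopper-Pearson and levels Poisson intervals, computed with scipy 1.17.1. TMM used edgeR 4.0.16. Named entries were all members, entries named miR-71 or miR-13, and the 3 nearest stage profiles. Members and lists were chosen with earlier results of these data known. Each stage's piRNA table repeated its miRNA table, and 1 column of counts from another species' vesicles was not used.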

Additional observations from a re-analysis of the deposited data

Results flagged for a closer look

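The tables also hold a class of tags assigned to the Rfam mir-2 precursor, which lies outside the mature entries compared above. It counted 24 tags in the egg library, 826 in that of metacercariae and 39 in that of adults, each above the 3 tags that a count of 0 allows, and was not listed in vesicles. These are 1.17 (0.749 to 1.74), 40.3 (37.6 to 43.2) and 2.01 (1.43 to 2.75) per 1000000 annotated tags in eggs, metacercariae and adults. Per 100000 tags of mature miR-2 they are 5.63, 68.7 and 8.22 in the same order. All Rfam miRNA precursor classes together took 0.337% of the annotated tags of eggs, 3.20% of those of metacercariae and 0.119% of those of adults. The mir-2 class held 0.0346%, 0.126% and 0.168% of these precursor tags in the same order, so by this share adults were highest. The part of all precursor classes in the mir-2 value was not tested.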

How the results depend on the processing

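No paired analysis was possible because each group is 1 library. Median-of-ratios, TMM, the authors' RPM, totals without the most abundant entry and known miRNAs alone rescale every entry of a comparison by 1 factor, which for adults over metacercariae shifted the median log2 ratio by -0.98, -0.92, -1.18, -0.10 and 0.08 in that order. Under them the family ratio was 0.479, 0.500, 0.417, 0.884 and 1.003 there, and 0.767, 1.10, 1.18, 1.26 and 1.09 for adults over eggs. For metacercariae over eggs it was 1.52 with TMM, 2.82 with the authors' RPM and 1.09 with known miRNAs. For vesicles over adults it was 0.0198, 0.0103, 0.00527 and 0.0179 under the first 4. For adults over metacercariae 0 members were higher and 1 lower (the 5p entry) with median-of-ratios, TMM and the authors' RPM, 1 was lower without the most abundant entry or with a pseudocount of 0.1 RPM, and 4 were higher and 1 lower at a fold of 2. For metacercariae over eggs 1 member was higher with the authors' RPM and 2 at a fold of 2. Composition distances without miR-2a-3p were 27.0, 19.4, 20.6 and 49.6 percentage points, the last on 9 vesicle tags. The other 66 values of these counts, ratios, distances and shares stayed within the counting interval or within 1.5 times the count. For single members 4 values lost and 16 gained the call, and none turned a called direction. Vesicle depth limits members below 9.93 RPM.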
